A study of Mus musculus with 21 samples.

Results

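The clustered protocadherins are the cell adhesion genes that stand in 3 neighbouring clusters, alpha, beta and gamma, on mouse chromosome 18. Members were the genes of chromosome 18 with a symbol of the form Pcdha, Pcdhac, Pcdhb, Pcdhga, Pcdhgb or Pcdhgc and a number, with no measured value used in the choice. This gave 58 of the 54532 genes in the expression table: 14 alpha, 22 beta and 22 gamma genes. In GRCm38 coordinates and on the plus strand, the alpha genes lie between 36930184 and 37187661, the beta genes between 37264938 and 37524479, and the gamma genes between 37661793 and 37841873. The table has 2 rows named Pcdha11, told apart here as the first row (ENSMUSG00000007440) and the second row (ENSMUSG00000102206).

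Clustered protocadherins are transmembrane proteins whose extracellular cadherin repeats bind the same isoform on a neighbouring cell. In the alpha and gamma clusters each gene starts at its own promoter and its own large exon, which encodes the extracellular part, and is spliced to constant exons that all genes of the cluster share, while each beta gene is a single large exon. In the nervous system single neurons express small sets of the alpha, beta and gamma genes, chosen promoter by promoter with CTCF, cohesin and DNA methylation taking part, and the resulting surface code is used for self-avoidance of neurites. The C-type genes at the ends of the alpha and gamma clusters are known for a broader use than the others.

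Messenger RNA was measured in 21 libraries from 7 glioma stem-like cell lines, brain tumour cells taken from genetically engineered mice and grown in NeuroCult medium with EGF, bFGF and heparin at low oxygen. The stated interest of the series was Cgas in gliomas of either genotype. The lines labelled IDH1 mutant (called mutant lines) were PIC144-1, PIC144-3, PIC496-3 and PIC496-4, and those labelled IDH1 WT (called WT lines) were PC134-0, PC308-1 and PC326-1, with 3 libraries each and no treatment. IDH1 is the cytosolic isocitrate dehydrogenase whose glioma mutants produce 2-hydroxyglutarate. No strain, age, promoter, Cre or other allele is in the labels, nor whether the lines named PIC144, or those named PIC496, came from the same mouse. Genotypes were therefore compared with lines as replicates (n = 4 mutant, n = 3 WT). The libraries of a line are called biological replicates, but nothing says that they came from separate cultures, so p-values among lines measure only the spread between libraries, which may be technical.

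Values are FPKM, fragments per kilobase of gene length scaled to a library size, and the libraries held 15011668 to 21966351 fragments. That size, read from the values, was 0.957 to 1.05 times the fragments summed over genes, so it was not the plain total. The stem cell and glioma markers Sox2, Olig2 and Nes were at or above 46.9 FPKM in every line, while Gfap was at or below 0.186 FPKM. Microglial genes (Ptprc, Csf1r, Cx3cr1, Itgam) and the endothelial genes Cdh5 and Cldn5 were under 0.05 FPKM in every line. The microglial gene Aif1 was at most 0.0542 FPKM and the endothelial gene Pecam1 at most 0.0902 FPKM. The 8 neuronal markers summed to 26.7 to 41.6 FPKM in the mutant lines and 45.5 to 75.4 FPKM in the WT lines. Most of it was Map2 and Tubb3. Rbfox3, Snap25 and Stmn2 were at most 0.419 FPKM in any line. Syt1 reached 6.54 FPKM (PIC144-1), Syp 1.48 FPKM (PC326-1) and Dcx 1.10 FPKM (PC308-1). The part of these markers in the genotype differences below was not tested. The 4 fibroblast and pericyte markers summed to at most 0.681 FPKM in the WT lines and to 11.2 FPKM in PIC144-1, where Dcn was 10.4 FPKM.

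Exon sharing sets what these FPKM mean. Own exon, held by no other gene on the same strand, made up 8.56% to 61.1% of the length of the alpha genes, 33.2% to 68.5% of the gamma genes and at least 90.3% of the beta genes. The annotated genes Gm42416, Gm37013, Gm37388 and Gm38182, which overlap the clusters and have no exon of their own, had 0 fragments in all 21 libraries. Fragments in shared exons therefore appear to be in no gene's value, while the deposited FPKM of alpha and gamma genes still divide by the length of all exons. Levels of different genes are compared below per kilobase of own exon at the same depth scale, called the own-exon level. In these bulk cultures, fewer cells using a gene and less RNA per cell cannot be told apart.

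The lines differed in how many members they expressed. A member was counted as detected at a line mean of at least 0.5 FPKM, which held for 36 of 58 members in PIC496-3, 32 in PC308-1, 31 in PIC144-3, 30 in PC134-0, 26 in PC326-1, 23 in PIC144-1 and 22 in PIC496-4. Beta genes were the most widely detected, with 13 of 22 in all 7 lines. Of the 19 gamma A and gamma B genes only Pcdhgb1 reached that level in all 7 lines and 5 reached it in none. Of the 14 alpha genes 7 reached it in none, and PIC144-1 had 0 of 14. Since FPKM of alpha and gamma genes divide by shared exons too, the same cut is stricter for them than for beta genes. At an own-exon level of at least 0.5, a rule added after the values were seen, 23 members (PIC496-4) to 40 members (PIC496-3) were counted. By that rule 13 beta genes and 4 gamma A and gamma B genes (Pcdhgb1, Pcdhgb2, Pcdhgb6 and Pcdhgb8) were detected in all 7 lines, and 4 gamma A and gamma B genes and 4 alpha genes in none.

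**Figure D1:**
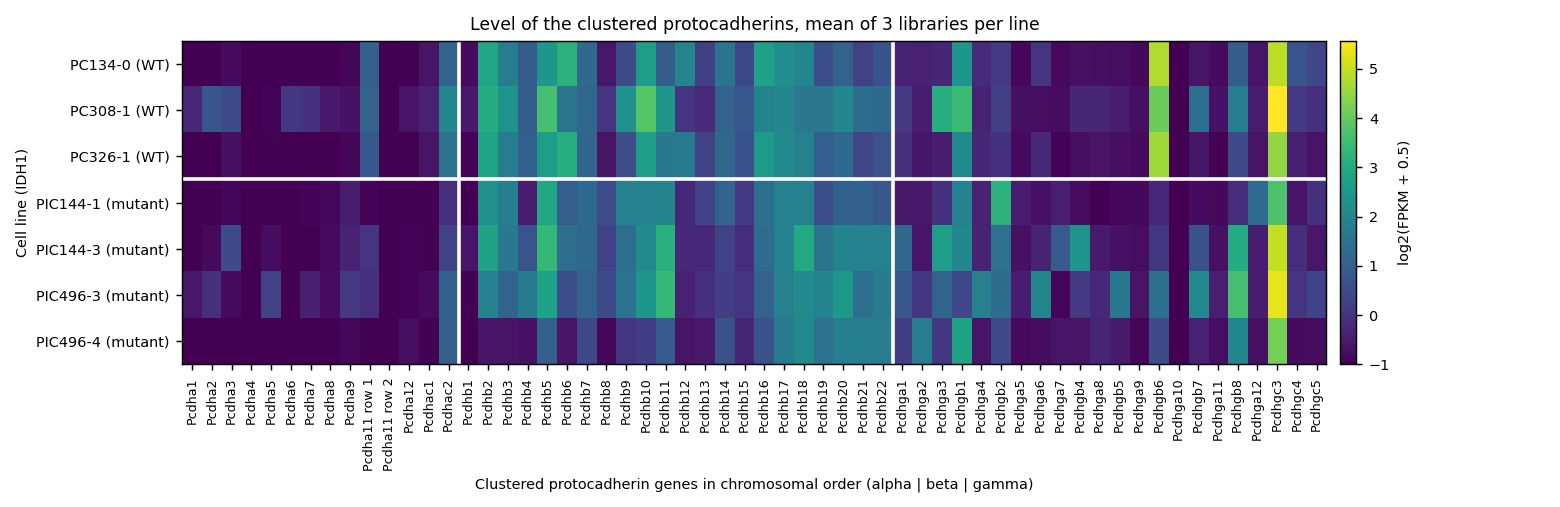
Each column is one of the 58 genes in chromosomal order and each row a cell line; colour gives log2(FPKM + 0.5) of the mean of 3 libraries. Pcdhgc3 is bright in every line, Pcdhgb6 in the 3 IDH1 WT lines, and the left part of the beta cluster is dark in PIC496-4.

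Summed over a cluster, the genotypes overlapped. The alpha genes summed to 2.40 ± 1.55 FPKM over the mutant lines (SD, n = 4) and 5.58 ± 3.28 FPKM over the WT lines (SD, n = 3). The beta genes summed to 49.3 ± 17.4 and 66.3 ± 9.14 FPKM, and the gamma genes to 50.9 ± 21.6 and 71.6 ± 18.9 FPKM. The mutant mean was the lower in each cluster, with single lines of the genotypes interleaved.

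The summed levels differed among the lines of a genotype. On the own-exon scale PC308-1 had the highest sum in each cluster, with 19.6 ± 0.533 for alpha, 77.2 ± 1.67 for beta and 162 ± 7.90 for gamma (SD, 3 libraries). PIC144-1 had the lowest alpha and gamma sums, 1.61 ± 0.380 and 52.8 ± 1.55. PIC496-4 had the lowest beta sum, 26.8 ± 3.03, with the next line, PIC144-1, at 46.4 ± 1.70.

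**Figure D2:**
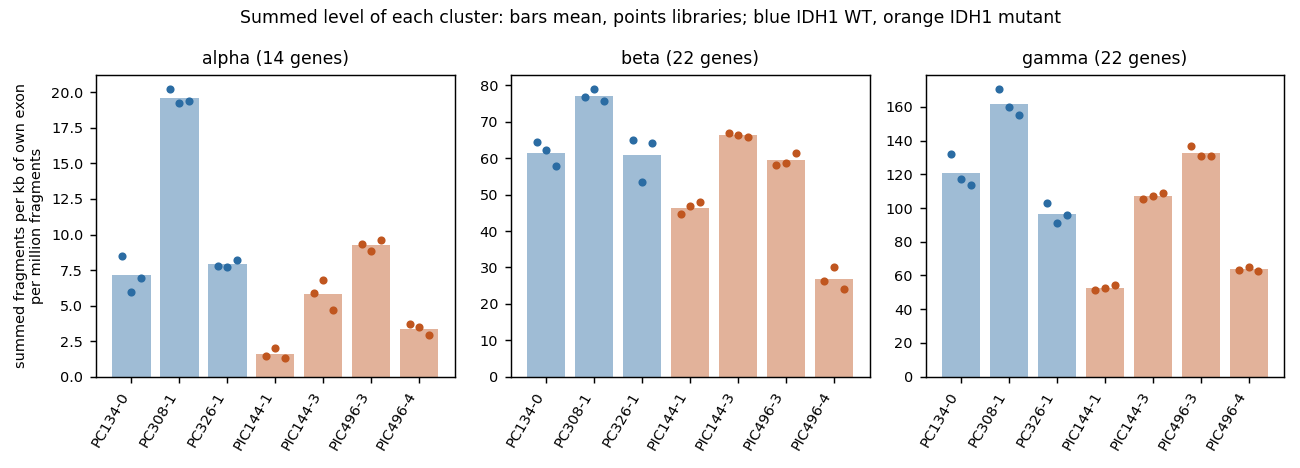
Bars give the mean and points the 3 libraries of each line for the summed own-exon level (fragments per kilobase of own exon, scaled to depth) of the alpha, beta and gamma genes. Blue lines are IDH1 WT and orange lines IDH1 mutant; PC308-1 is highest in each panel.

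Among the C-type genes, Pcdhgc3 had the highest FPKM of all members, averaged over lines. This gamma gene encodes an isoform known to bind Axin1, a scaffold of Wnt signalling. It measured 47.0 ± 4.70 FPKM in PC308-1, 39.5 ± 0.659 in PIC496-3, 30.6 ± 1.09 in PIC144-3 and 29.8 ± 3.27 in PC134-0 (SD, 3 libraries). PC326-1 followed at 22.3 ± 1.13, PIC496-4 at 18.002 ± 1.20 and PIC144-1 at 12.8 ± 0.263 FPKM. PIC144-3 and PC134-0 lay within the spread of their libraries, and the genotypes were interleaved. The log2(FPKM + 0.5) difference, mutant minus WT, was -0.44 with a 95% interval of -1.40 to 0.52 (limma adjusted p = 0.651). Leaving out 1 line moved it between -0.70 (without PIC496-3) and -0.16 (without PC308-1). The share of Pcdhgc3 in the summed own-exon level of the gamma cluster ranged from 37.5% ± 1.36 in PC326-1 to 48.4% ± 1.33 in PIC496-3 (SD, 3 libraries), while its FPKM had a 3.67-fold range. An opposite-strand gene overlaps 1559 bases of its own exon, and no source used here says whether strand was used in counting.

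The other C-type genes were low. Pcdhac2, an alpha gene needed for the tiling of serotonergic axons, was 3.52 ± 0.293 FPKM in PC308-1, 2.32 ± 0.0825 in PC326-1 and 1.67 ± 0.305 in PC134-0 (SD, 3 libraries). In the mutant lines it was 1.55 ± 0.317 FPKM in PIC496-3, 1.53 ± 0.161 in PIC496-4, 0.772 ± 0.108 in PIC144-3 and 0.418 ± 0.0925 in PIC144-1. The line means did not overlap, but a library of PIC496-3 reached 1.82 FPKM, above the lowest WT library at 1.39 FPKM. Its log2 difference was -0.97 (SE 0.356), with a limma adjusted p of 0.358.

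Pcdhgc4, known for the survival of cortical interneurons, was highest in PC134-0 at 1.13 ± 0.111 FPKM and lowest in PIC496-4 at 0.0763 ± 0.0704 FPKM (SD, 3 libraries). Its log2 difference between genotypes was -0.53 (limma adjusted p = 0.519), between -0.80 without PC326-1 and -0.24 without PC134-0. Pcdhgc5, an isoform that binds GABA-A receptors, ranged from 0.812 ± 0.0455 FPKM in PC134-0 to 0.0843 ± 0.0557 FPKM in PIC496-4. Both genes thus had their highest and their lowest line mean in common, but not all of these lines stood apart. For Pcdhgc5 the libraries of the mutant line PIC496-3, at 0.789, 0.867 and 0.603 FPKM, overlapped those of PC134-0. Libraries of PIC496-4 overlapped those of PIC144-1 for Pcdhgc4 and those of PC326-1 for Pcdhgc5. Pcdhac1 was at most 0.260 ± 0.0148 FPKM, in PC308-1, and was at 0 in 4 of 12 mutant libraries.

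The member that passed the genotype test was Pcdhgb6 (ENSMUSG00000103088), a gamma B gene at 37742094 to 37841873 of chromosome 18. It had 29.2, 26.7 and 26.1 FPKM in the libraries of PC134-0, 27.0, 22.4 and 23.2 in PC326-1, and 16.9, 17.0 and 15.9 in PC308-1. In the mutant lines it had 1.99, 2.29 and 2.15 FPKM in PIC496-3, 0.724, 1.15 and 0.938 in PIC496-4, 0.629, 0.560 and 0.467 in PIC144-3, and 0.219, 0.320 and 0.434 in PIC144-1. All 9 WT libraries stood above all 12 mutant libraries, the lowest of them 6.96 times the highest mutant library.

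The mean of Pcdhgb6 was 22.7 ± 5.53 FPKM over the WT lines (SD, n = 3) and 0.989 ± 0.809 FPKM over the mutant lines (SD, n = 4), a ratio of 23.0. The log2(FPKM + 0.5) difference, mutant minus WT, was -4.08 (SE 0.395, 95% interval -5.00 to -3.16; limma adjusted p = 0.0146 over 13379 genes). Of all these genes 0.12% passed. The exact permutation p over the 35 splits of the lines was 0.0286, the smallest this design can give. Without PC134-0, PC326-1, PIC144-3 or PIC496-4 the limma adjusted p was 0.118, 0.107, 0.0505 or 0.0706 and the call was lost, while the log2 difference stayed between -4.40 and -3.84 over the 7 fits that left out 1 line. The call was also lost with no filter on low values (limma adjusted p = 0.0731), with voom on recovered fragments (0.0571) and with lines that share a number averaged (0.119).

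**Figure D3:**
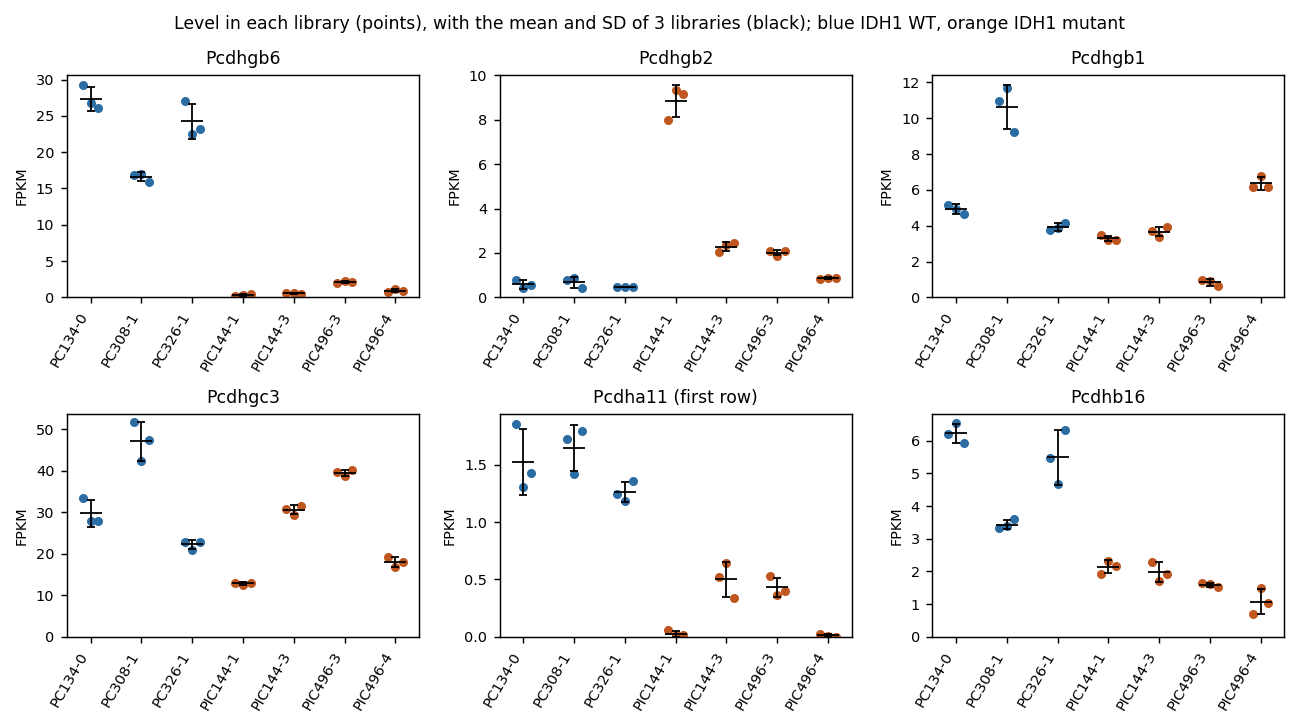
Points give FPKM in each library, with the mean and SD of 3 libraries in black, for 6 genes; blue lines are IDH1 WT and orange lines IDH1 mutant. Pcdhgb6, Pcdhb16 and the first Pcdha11 row show no overlap between genotypes, while Pcdhgc3 and Pcdhgb1 do.

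The gamma A and gamma B genes made up a different leading set in each mutant line. Shares below are of the summed own-exon level of these 19 genes, with the SD of 3 libraries. Pcdhgb6 held 72.0% ± 0.818 in PC134-0, 74.1% ± 1.78 in PC326-1 and 36.3% ± 1.77 in PC308-1, and Pcdhgb1 came next in each of these 3 lines. In PIC144-1 the leading gene was Pcdhgb2 with 50.5% ± 1.72. Pcdhgb8, annotated as a polymorphic pseudogene, led in PIC144-3 with 25.5% ± 2.28 and in PIC496-3 with 32.2% ± 1.26. In PIC496-4 Pcdhgb1 led with 41.2% ± 1.63. No mutant line had Pcdhgb6 among its leading 3 genes.

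How many genes carried the level also differed. The effective number, the exponential of the Shannon entropy of the shares, would be 19 if all genes were equal. It was 2.75 ± 0.0907 in PC326-1 and 2.88 ± 0.127 in PC134-0, 4.93 ± 0.210 in PIC144-1 and 5.48 ± 0.152 in PC308-1, 6.42 ± 0.190 in PIC496-4, 8.52 ± 0.316 in PIC144-3 and 9.17 ± 0.170 in PIC496-3 (SD, 3 libraries). PC308-1 stood above PIC144-1, so the genotypes overlapped. For the 22 beta genes the effective number stayed between 12.97 ± 0.390 in PIC496-4 and 16.4 ± 0.0805 in PIC144-1.

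**Figure D4:**
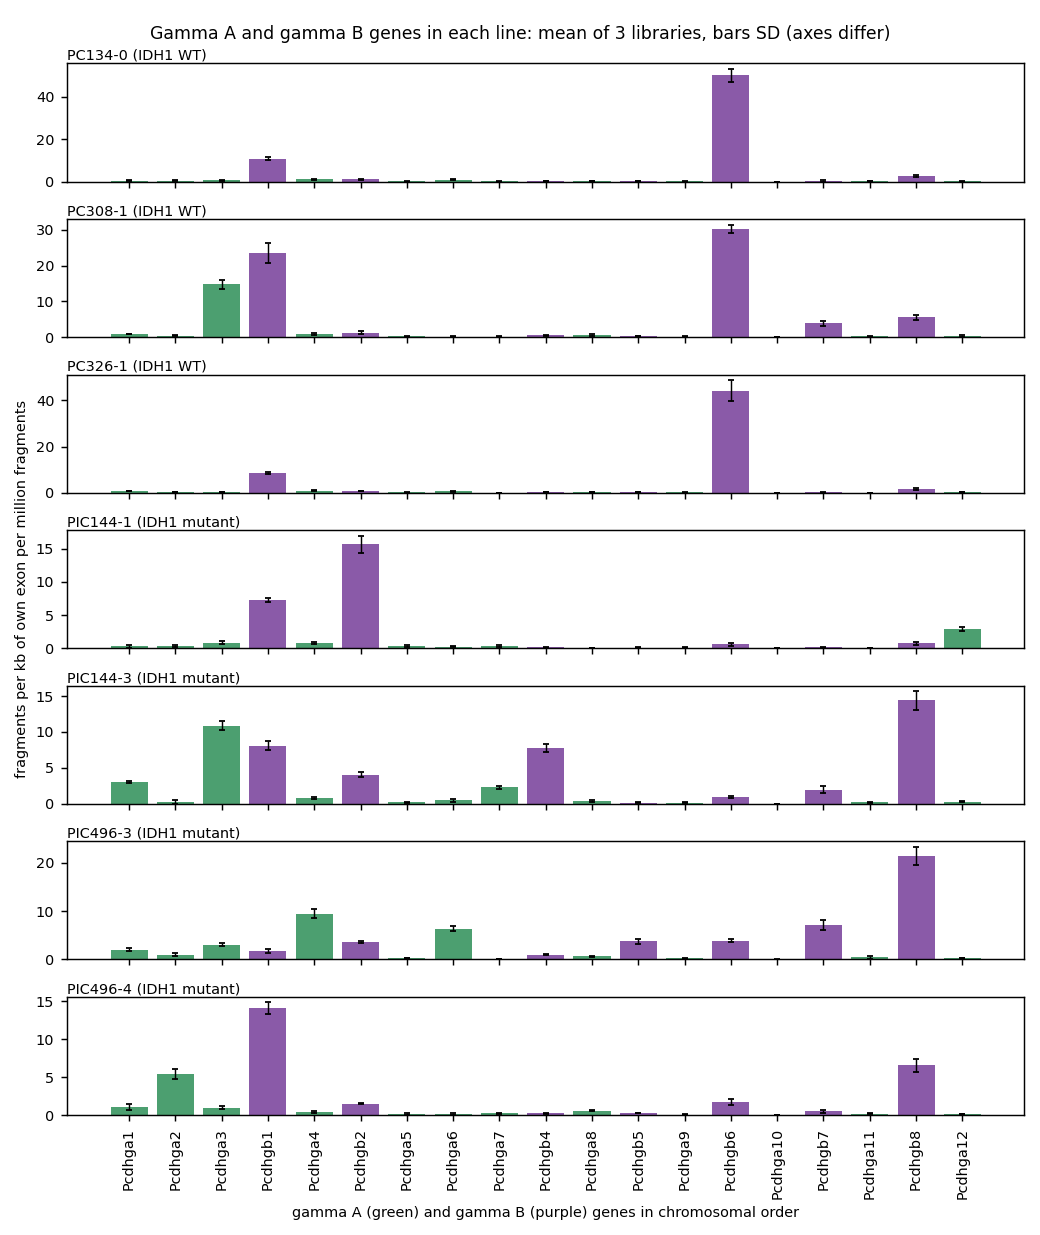
Bars give the own-exon level of the 19 gamma A and gamma B genes in each line (mean of 3 libraries, error bars SD; the vertical axes differ). Pcdhgb6 is the tallest bar in the 3 IDH1 WT lines, and Pcdhgb2, Pcdhgb8, Pcdhgb8 and Pcdhgb1 lead in PIC144-1, PIC144-3, PIC496-3 and PIC496-4.

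Several gamma genes were far higher in 1 line than in the others. Pcdhgb4 was 4.75, 4.53 and 5.14 FPKM in the libraries of PIC144-3 and at most 0.668 FPKM in any other library. In PIC496-3 Pcdhga4 was 3.01, 2.93 and 3.49 FPKM, Pcdhga6 3.84, 3.38 and 3.34 and Pcdhgb5 2.42, 2.98 and 2.35. No library of another line exceeded 0.547 FPKM for any of these 3 genes. Pcdhga2 was 2.98, 3.35 and 2.57 FPKM in PIC496-4 and at most 0.719 elsewhere, and Pcdhga12 was 1.72, 1.97 and 2.17 FPKM in PIC144-1 and at most 0.357 elsewhere. These 6 genes did not pass the filter on low values and were not tested, so their levels are a description. In each case the libraries of the high line lay close together. The high lines were mutant lines, but the genes were picked for being high in 1 line, so this cannot be read as a result. An alpha gene, Pcdha6, stood apart in the same way in a WT line. It was 0.548 ± 0.0744 FPKM in PC308-1 (SD, 3 libraries), with line means of at most 0.0109 FPKM elsewhere.

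Pcdhgb2 had its higher line means in the mutant lines. It measured 8.85 ± 0.735 FPKM in PIC144-1, 2.28 ± 0.203 in PIC144-3, 2.01 ± 0.122 in PIC496-3 and 0.857 ± 0.0445 in PIC496-4 (SD, 3 libraries). The WT lines had 0.680 ± 0.243, 0.585 ± 0.194 and 0.467 ± 0.00708 FPKM in PC308-1, PC134-0 and PC326-1. The line means did not overlap, although the lowest mutant library, at 0.806 FPKM, lay below the highest WT library, at 0.872 FPKM. Its log2 difference was 1.51 (SE 0.579, limma adjusted p = 0.369), so it did not pass the test. Without PIC144-1 the log2 difference was 0.98.

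Pcdhga3 was abundant in lines of both genotypes, with 8.10 ± 0.715 FPKM in PC308-1 and 5.98 ± 0.351 in PIC144-3 (SD, 3 libraries), and at most 1.67 ± 0.182 FPKM elsewhere. Pcdhgb1 ranged from 10.6 ± 1.25 FPKM in PC308-1 to 0.831 ± 0.182 in PIC496-3, and Pcdhgb8 from 11.6 ± 1.02 FPKM in PIC496-3 to 0.403 ± 0.103 in PIC144-1. Pcdhgb7 ranged from 3.895 ± 0.553 FPKM in PIC496-3 to 0.0717 ± 0.0645 in PIC144-1, with opposite-strand genes over 771 bases of its own exon. Pcdhga10 had 3 fragments in all 21 libraries together. Its whole own exon of 2613 bases overlaps an opposite-strand gene, and the part of this overlap in its low value was not tested.

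As groups, the 7 gamma B genes summed to 17.3 ± 5.55 FPKM over the mutant lines (SD, n = 4) and 32.7 ± 2.51 FPKM over the WT lines (SD, n = 3). These sums did not overlap, the highest mutant line being at 23.7 and the lowest WT line at 29.9 FPKM. The 12 gamma A genes summed to 7.68 ± 3.80 and 4.77 ± 4.71 FPKM and overlapped. Pcdhgb6 made up most of the gamma B sum of PC134-0 and PC326-1. Without Pcdhgb6 the other gamma B genes summed to 16.3 ± 5.04 FPKM over the mutant lines and 9.95 ± 6.11 FPKM over the WT lines, so the mutant mean was then the higher. These sums, which were added after the values were seen, overlapped, with 11.4 to 21.5 FPKM in the mutant lines and 5.62 to 16.9 FPKM in the WT lines.

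The alpha genes were the lowest cluster, and their sets also varied by line. The first Pcdha11 row had 1.85, 1.31 and 1.43 FPKM in PC134-0, 1.73, 1.42 and 1.80 in PC308-1 and 1.24, 1.19 and 1.36 in PC326-1. The same row had 0.518, 0.646 and 0.338 FPKM in PIC144-3, 0.526, 0.362 and 0.400 in PIC496-3, and at most 0.0563 FPKM in PIC144-1 and 0.0226 in PIC496-4. No mutant library reached a WT library. The log2 difference was -1.48 (SE 0.307, limma adjusted p = 0.201), which did not pass the test across all genes. The exact permutation p was 0.0286, the smallest this design can give. Pcdhgb6, Pcdhac1, Pcdhac2, Pcdhb6, Pcdhb10, Pcdhb12, Pcdhb15, Pcdhb16 and Pcdhb17 had the same permutation p.

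Other alpha genes were read in few lines. Pcdha2 was 1.20 ± 0.0231 FPKM in PC308-1 and 0.445 ± 0.101 in PIC496-3 (SD, 3 libraries), and had 0 fragments in PC134-0, PC326-1, PIC144-1 and PIC496-4. Pcdha3 was 0.909 ± 0.0902 FPKM in PIC144-3 and 0.891 ± 0.133 in PC308-1, lines of opposite genotype, and at most 0.0989 FPKM elsewhere. Pcdha9 was highest in PIC496-3, at 0.570 ± 0.184 FPKM, and Pcdha5 in the same line, at 0.727 ± 0.101 FPKM. PC308-1 had the broadest set, with an effective number of 7.05 ± 0.441 among the 14 alpha genes, followed by PIC496-3 at 6.996 ± 0.590, within its spread.

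At the other end, Pcdhac2 held 88.3% ± 3.00 of the alpha own-exon level in PIC496-4, where the 12 alpha genes other than the C-type had 47 fragments in 3 libraries together. These 12 genes varied 33.1-fold in their summed FPKM between the lowest line, PIC496-4, and the highest, PC308-1. Pcdha4, with 494 bases of own exon, and the second Pcdha11 row had 4 and 12 fragments in all libraries and cannot be read at this depth.

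The beta genes, which have an exon each and so are read over nearly their whole length, were detected in all 7 lines for 13 of 22 genes on either scale. Pcdhb5 had the highest mean over lines and was 11.8 ± 0.858 FPKM in PC308-1, 9.86 ± 0.384 in PIC144-3, 7.02 ± 0.0824 in PIC144-1 and 6.56 ± 0.206 in PIC496-3 (SD, 3 libraries). It was 5.88 ± 0.914 FPKM in PC326-1, 5.00 ± 0.332 in PC134-0 and 1.503 ± 0.211 in PIC496-4, which stood well below the rest. Pcdhb11 ranged from 9.92 ± 0.149 FPKM in PIC496-3 to 1.37 ± 0.210 in PIC496-4, with PC134-0 at 1.41 ± 0.343, within the spread of the latter. Pcdhb18 was 7.41 ± 0.189 FPKM in PIC144-3 and between 2.56 ± 0.652 and 3.92 ± 0.289 in the other lines. Pcdhb17 had the smallest fold range of the beta genes, from 4.31 ± 0.210 FPKM in PC134-0 to 2.79 ± 0.666 in PIC496-4, a 1.55-fold range. Pcdhb1, which lies apart at the alpha end of the cluster, had a line mean of at most 0.178 FPKM.

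Line means did not overlap between the genotypes for 7 of 22 beta genes, each with the mutant lines lower. These were Pcdhb12, which was not tested, and 6 of the 20 tested beta genes. Of all genes tested 6.43% did so in that direction. None of the 20 tested beta genes passed the genotype test (limma), while 6 had an unadjusted p under 0.05, beside 12.8% of all genes. Pcdhb16 was 6.23 ± 0.297 FPKM in PC134-0, 5.49 ± 0.835 in PC326-1 and 3.44 ± 0.136 in PC308-1 (SD, 3 libraries). In the mutant lines it was 2.14 ± 0.203 FPKM in PIC144-1, 1.98 ± 0.298 in PIC144-3, 1.59 ± 0.0598 in PIC496-3 and 1.08 ± 0.388 in PIC496-4. No library of the genotypes overlapped, and the log2 difference was -1.33 (SE 0.264, limma adjusted p = 0.185).

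Pcdhb6 was 8.83 ± 0.935 FPKM in PC134-0, 8.09 ± 1.04 in PC326-1 and 2.46 ± 0.226 in PC308-1 (SD, 3 libraries). In the mutant lines it lay between 2.04 ± 0.205 FPKM in PIC144-3 and 0.139 ± 0.0396 in PIC496-4. PC308-1 lay nearer to the mutant lines than to the other WT lines, and the libraries did not overlap (2.26 against 2.30 FPKM at the nearest). The log2 difference was -2.06 (SE 0.567, limma adjusted p = 0.280).

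Pcdhb10 was highest in PC308-1, at 13.4 ± 0.814 FPKM (SD, 3 libraries), and its log2 difference was -1.37 (SE 0.552, limma adjusted p = 0.375), or -0.88 without PIC496-4. Its highest mutant library had 5.25 FPKM and its lowest WT library 5.44 FPKM. For Pcdhb2, Pcdhb12, Pcdhb15 and Pcdhb17 the line means were apart while single libraries overlapped. Pcdhb2 was 3.55 ± 2.61 FPKM over the mutant lines (SD, n = 4) and 7.14 ± 0.600 FPKM over the WT lines (SD, n = 3), with PIC496-4 at 0.153 FPKM (log2 difference -1.34, limma adjusted p = 0.467). Without PIC496-4 its log2 difference was -0.60. Pcdhb15 and Pcdhb17 had log2 differences of -0.71 and -0.31 (limma adjusted p = 0.285 and 0.413). Pcdhb12 was 3.47 and 2.71 FPKM in PC134-0 and PC326-1 but 0.485 FPKM in PC308-1. An opposite-strand gene overlaps 1927 of its 3034 bases.

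In the other direction Pcdhb21 was 2.50 ± 0.776 FPKM over the mutant lines (SD, n = 4) and 1.17 ± 0.704 FPKM over the WT lines (SD, n = 3), which overlapped (log2 difference 0.88, limma adjusted p = 0.361). Pcdhb21 and Pcdhb22 share 455 bases of exon. Otherwise no 150-base stretch is shared between beta genes, except 6 in Pcdhb6 and Pcdhb10.

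In PIC496-4 the low beta level was in the part of the cluster nearest the alpha genes. The 11 genes from Pcdhb2 to Pcdhb12 summed to 5.71, 5.71 and 5.63 FPKM in its libraries, against line means of 29.3 to 53.8 FPKM in the other 6 lines. PIC496-4 had the lowest line mean of the 7 lines for each of these 11 genes. The 10 genes from Pcdhb13 to Pcdhb22 summed to 19.9, 23.8 and 18.1 FPKM in PIC496-4, within the range of 16.9 to 26.3 FPKM of the other lines, and 4 of them were lowest there. This division of the cluster was chosen after the values were seen and is a description. Compared with PIC496-3, 14 of the 20 tested beta genes were lower and 2 higher in PIC496-4 (limma, adjusted p under 0.05). Of all genes tested, 26.4% were lower and 25.1% higher in PIC496-4. The 10 tested genes from Pcdhb2 to Pcdhb11 were all lower, by log2 differences of -2.50 to -0.68. From Pcdhb13 to Pcdhb22, 4 were lower and 2 higher of 10, between -0.67 and 0.43. The division was placed with these same libraries in view, so the counts on its sides are no test of it.

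**Figure D5:**
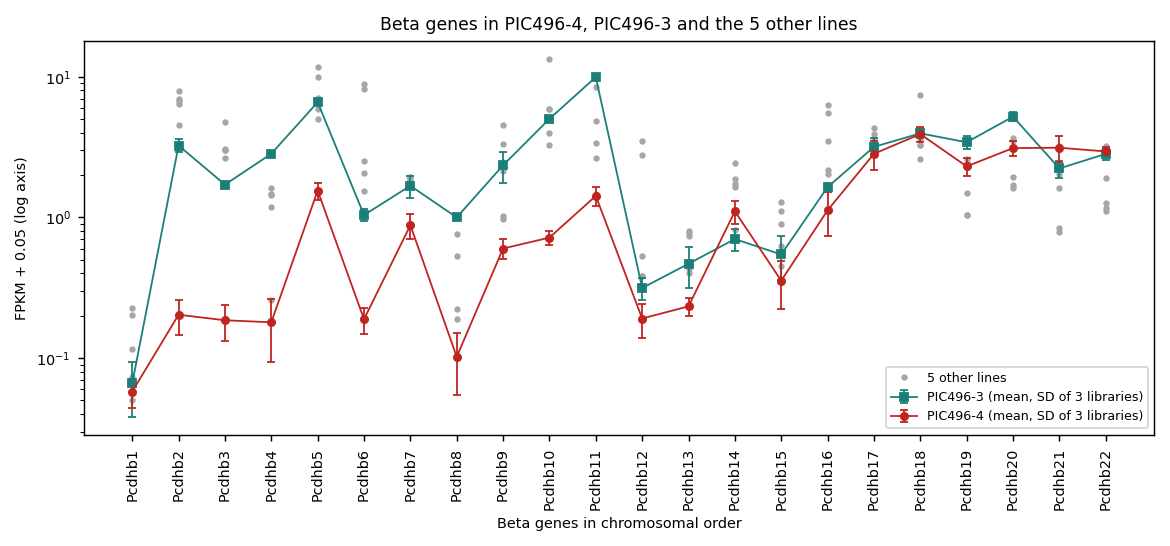
FPKM of the 22 beta genes in chromosomal order, on a log axis after adding 0.05; PIC496-4 and PIC496-3 are means with SD of 3 libraries and grey points the means of the 5 other lines. PIC496-4 lies below all other lines from Pcdhb2 to Pcdhb12 and among them from Pcdhb18 to Pcdhb22.

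Across the members, 31 of 58 passed the filter on low values and were tested: 2 alpha, 20 beta and 9 gamma genes. Pcdhgb6 alone passed between genotypes, at a limma adjusted p under 0.05. At an unadjusted p under 0.05 there were 10 members, where 12.8% of all genes were. Line means did not overlap for 10 of the 31, where those of 13.3% of all genes did not. The 9 that were lower in the mutant lines were Pcdhgb6, the first Pcdha11 row, Pcdhac2, Pcdhb2, Pcdhb6, Pcdhb10, Pcdhb15, Pcdhb16 and Pcdhb17, and Pcdhgb2 was higher. Of the members that were not tested, Pcdhac1 and Pcdhb12 had line means that did not overlap, both lower in the mutant lines.

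At the level of single libraries 5 of the 31 did not overlap, namely Pcdhgb6, the first Pcdha11 row, Pcdhb6, Pcdhb10 and Pcdhb16, each lower in the mutant lines. Of all genes tested 3.35% did not overlap, 2.06% with the mutant libraries lower. The median log2 difference of the 31 members was -0.31, with 18 negative and 13 positive, beside 0.01 for all genes and -0.14 for the 343 tested genes of chromosome 18 outside the clusters. By cluster it was -0.28 for beta and 0.19 for gamma genes. Members share the same lines and lie in 1 region, so they are not independent of each other.

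All 31 tested members differed among the 7 lines (limma F test, largest adjusted p = 0.00514), as did 89.6% of all genes.

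Between PIC144-3 and PIC144-1, 24 of 31 members differed, 20 higher and 4 lower in PIC144-3 (limma, adjusted p under 0.05). Of all genes 58.2% differed, 30% higher and 28.2% lower. Pcdhgb8 differed most, by a log2 difference of 3.20 (SE 0.126), followed by Pcdhga3 at 2.74 (SE 0.134) and Pcdhga1 at 1.79 (SE 0.168). Pcdhgb2 was lower in PIC144-3, with a difference of -1.75 (SE 0.137), and Pcdhgb7 higher, with 1.45 (SE 0.181). Differences of at least 1 on the log2 scale were found for 10 members, 4 beta and 6 gamma, beside 10.6% of all genes, and of at least 2 for 2 members, beside 2.34%. PIC144-1 was lower over chromosome 18 as a whole: the median of the 343 tested genes outside the clusters was -0.35 from the mean of the lines, against -0.04 to 0.11 in the other lines. Of these genes 184 were higher and 42 lower in PIC144-3, with a median log2 difference of 0.30, beside 0.46 for the members. The part of this in the differences of the members was not tested. Without PIC144-1 the genotype difference of Pcdhgb6 was -3.84 (limma adjusted p = 0.0498).

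Between PIC496-4 and PIC496-3, 26 of 31 members differed, 3 higher and 23 lower in PIC496-4, where 51.5% of all genes differed (limma, adjusted p under 0.05). The largest differences were those of Pcdhgb7 at -2.53 (SE 0.181), Pcdhb2 at -2.50 (SE 0.0904), Pcdhb11 at -2.48 (SE 0.102) and Pcdhb4 at -2.39 (SE 0.169). Pcdhgb1 went the other way, with 2.38 (SE 0.0969), and Pcdhb14 and Pcdhb21 were the other members that were higher. A difference of at least 1 held for 14 members, 9 beta and 5 gamma, beside 9.95% of all genes, and of at least 2 for 6 members, beside 2.71%. Chromosome 18 genes outside the clusters had a median log2 difference of 0.03 between these lines, with 100 higher and 95 lower of 343.

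Between the WT lines PC134-0 and PC326-1, 7 of 31 members differed, 3 higher and 4 lower in PC326-1 (limma, adjusted p under 0.05). Of all genes 19.2% differed, 8.98% higher and 10.2% lower. Pcdhgc4 was lower in PC326-1, with a log2 difference of -1.12 (SE 0.148), and this was the only difference of at least 1, beside 1.85% of all genes. None reached 2, beside 0.157%. Pcdhb11 was higher, with 0.72 (SE 0.102), and Pcdhac2 too, with 0.39 (SE 0.125), while Pcdhgb8 and Pcdhgc3 were lower, with -0.49 and -0.41.

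As a description, the Spearman correlation of the own-exon level between PC134-0 and PC326-1 was 0.982 over the 22 beta genes and 0.956 over the 19 gamma A and gamma B genes. Over the same gamma genes it was 0.639 between PIC144-1 and PIC144-3 and 0.560 between PIC496-3 and PIC496-4, and over beta genes 0.817 and 0.608. The genes of a line share its libraries and depth in these values.

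Genes that act on or with the clusters were read from the same fit. Of 25 regulators of the clusters, among them Ctcf and the cohesin subunits, 24 were tested, none passed between genotypes and 3 had an unadjusted limma p under 0.05, where 12.8% of all genes did. Setdb1, a histone methyltransferase that acts at these clusters, was 14.0 ± 0.576 FPKM over the mutant lines (SD, n = 4) and 11.3 ± 0.683 FPKM over the WT lines (SD, n = 3), with a log2 difference of 0.30 (limma adjusted p = 0.366). Smc1a, a cohesin subunit, was 41.8 ± 1.60 and 34.1 ± 1.84 FPKM, with a log2 difference of 0.29 (limma adjusted p = 0.373). The lines of the genotypes did not overlap for these genes, as for 13.3% of all genes tested, and the mutant lines were higher.

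Of 21 partner and signalling genes 19 were tested, none passed and 3 had an unadjusted limma p under 0.05, beside 12.8% of all genes. Nlgn3, a postsynaptic adhesion gene of the neuroligin family, had 1.29 ± 0.631 FPKM over the WT lines (SD, n = 3) and 0.0267 ± 0.0156 FPKM over the mutant lines (SD, n = 4), with a log2 difference of -1.71 (limma adjusted p = 0.104). Fyn, a kinase of the Src family, had 247 ± 33.1 and 167 ± 49.3 FPKM (log2 difference -0.60, limma adjusted p = 0.373) and overlapped.

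The protocadherins outside the clusters, single genes on several chromosomes, were also lower in PIC496-4. Of 12 such genes 9 were tested, and in PIC496-4 against PIC496-3 8 were lower and 1, Pcdh18, higher (limma, adjusted p under 0.05), with a median log2 difference of -2.19. Of all genes 26.4% were lower and 25.1% higher in PIC496-4. Between genotypes none of the 9 passed and 2 had an unadjusted limma p under 0.05, beside 12.8% of all genes. Of the 9 differences 9 were negative, with a median of -1.02 beside 0.01 for all genes. Pcdh11x was 0.821 ± 0.940 FPKM over the mutant lines (SD, n = 4) and 3.39 ± 0.320 FPKM over the WT lines (SD, n = 3), with a log2 difference of -1.81 (limma adjusted p = 0.278). Pcdh9 was 4.25 ± 2.16 and 9.51 ± 3.77 FPKM, with a log2 difference of -1.14 (limma adjusted p = 0.359).

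Of 64 neighbouring genes that start within 500 kb of the clusters or between them 24 were tested. None passed between genotypes, beside 0.12% of all genes. None had an unadjusted limma p under 0.05, beside 12.8%. Line means did not overlap for 3 of the 24, beside 13.3% of all genes. Between PIC496-4 and PIC496-3, 5 of the 24 were higher and 5 lower in PIC496-4 (limma, adjusted p under 0.05), beside 25.1% and 26.4% of all genes. The neighbours include Pcdh1 and Pcdh12, which were also counted among the protocadherins outside the clusters. Pcdh1 had the largest fall of the tested neighbours, from 7.09 FPKM in PIC496-3 to 1.06 FPKM in PIC496-4 (log2 difference -2.28). Taf7, a TFIID subunit between the beta and gamma clusters, was 3.22 to 3.43 FPKM in the WT lines and 2.44, 2.61 and 2.65 FPKM in PIC496-4, PIC144-3 and PIC496-3, but 0.795 FPKM in PIC144-1. Its neighbour Slc25a2, an ornithine transporter gene, was 0.0411 FPKM in PIC496-4 and 0.226 to 0.410 FPKM in the other lines. Zmat2, before the alpha cluster, was 25.5 FPKM in PIC496-4 and 23.5 FPKM in PIC496-3, and Diaph1, after the gamma cluster, 11.2 and 11.5 FPKM. Fchsd1 and Rnf14, the neighbours with the smallest p, had log2 differences of -0.59 and -0.34 between genotypes (limma adjusted p = 0.399 and 0.415).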

How the data were processed

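The deposited values are FPKM per gene and library, made by the authors. HISAT2 and mm39 are named per the submitters' processing notes, while no source used here names the counter, the annotation or the use of strand. Coordinates and the gene lengths deposited by the authors, in bases, are those of GRCm38 (GENCODE M21), and the length of all 58 members equals the summed exon length there. Whole fragments were recovered from FPKM times length, with 100% of values under 1000 fragments within 0.05 of a whole number.

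A line's value was the mean of its 3 libraries. Genotypes were compared with limma 3.58.1 in R 4.3.3 (lmFit, eBayes with trend and robust) on log2(FPKM + 0.5) of 7 lines, over 13379 genes with a line mean of at least 0.5 FPKM in at least 3 lines, Benjamini-Hochberg adjusted with a threshold of 0.05. Fold changes are on this scale, which understates those of low genes. Lines were compared with each other in a limma fit over 21 libraries. Single genes were also tested by a two-sided exact permutation test of mean FPKM over the lines. No pair of libraries of a line was alike within counting noise (chi-square per gene 3.79 to 26.9).

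The members, gene lists and tests were chosen with earlier results of these data known. Named were the members that passed between genotypes or had line means that did not overlap, the C-type genes, the 5 of highest mean in each cluster, the 5 of largest difference in each pair of lines that passed, the neighbours Taf7, Slc25a2, Diaph1 and Zmat2, and the first 2 by p of each list of related genes where none passed. Further genes, such as those high in 1 line, were picked with their values in view. Alternatives were other pseudocounts, filters, scalings and detection levels, limma voom on recovered fragments, fits over libraries, and leaving out lines or libraries. Figures were drawn with matplotlib 3.10.9.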

Additional observations from a re-analysis of the deposited data

Results flagged for a closer look

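In the 4 IDH1 mutant lines, 10 of 45 values looked at (42 members with a line mean of at least 0.5 FPKM in 1 of them, and the 3 cluster sums) had a highest or lowest line far from the other 3 lines, by Dixon's ratio of the gap to the range. By chance about 1 in 20 groups would stand apart in this way. Members could enter through the 1 line in which they were high, so neither the number that stood apart nor their direction can be read against that share. PIC496-3 stood apart for Pcdhga6 at 3.52 FPKM, Pcdhga4 at 3.14 FPKM, Pcdhgb5 at 2.58 FPKM and Pcdha5 at 0.727 FPKM. PIC144-3 stood apart for Pcdhb18 at 7.41 FPKM, where the next line had 3.92 FPKM, and for Pcdhgb4 at 4.80 FPKM, Pcdhga7 at 1.36 FPKM and Pcdha3 at 0.909 FPKM. PIC496-4 stood apart for Pcdhga2 at 2.97 FPKM, and PIC144-1 for Pcdhga12 at 1.96 FPKM. Of the 10 genes, 7 were gamma A or gamma B, 2 alpha and 1 beta, and each of the 4 lines was the high line of at least 1 gene. The split of the 42 members by cluster is not given, and members could enter through 1 line. This split of the 10 genes therefore cannot be read as a trait of a cluster.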

How the results depend on the processing

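No direction reversed among the 12 members whose genotype difference was recomputed under each alternative (the first Pcdha11 row, Pcdhac2, Pcdhb2, Pcdhb6, Pcdhb10, Pcdhb15, Pcdhb16, Pcdhb17, Pcdhgb2, Pcdhgb6, Pcdhgc3 and Pcdhgc4). The count of members changed between genotypes was 1 (Pcdhgb6) and remained 1 in 15 of 24 alternatives. It was 0 of 58 without a filter (limma, 12 members at an unadjusted p under 0.05, beside 2471 of all 30221 genes). With voom on recovered fragments it was 0 of 31 (10 unadjusted, beside 1643 of 13379 genes). With lines that share a number averaged it was also 0 of 31 (13 unadjusted, beside 1743 of 13379). Leaving out 1 line gave 0 to 1 (limma). The count was 0 without PC134-0, PC326-1, PIC144-3 or PIC496-4 (6 to 11 unadjusted, beside 737 to 2224 of 13379 genes). Leaving out 1 library per line gave 1 to 1. Over all 24 alternatives the log2 difference of Pcdhgb6 was -4.84 to -3.63 and its limma adjusted p 1.10e-08 to 0.119. This range includes the fits over 21 libraries described below, which were looser for all genes. Its lower end should therefore not be read as that of a test on lines. Leaving out PIC496-3 and PIC496-4 together, which was added after seeing the data, gave -4.61 with a limma adjusted p of 0.0249.

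Same-numbered libraries were slightly more alike than others. Their deviations correlated by 0.0298 on average, above 0.1 in 14 of 63 pairs and at most 0.292. Those of differently numbered libraries correlated by -0.0148, above 0.1 in 10 of 126. A limma fit over 21 libraries with the line as a random effect called 6 of 31 members, beside 552 of all 13379 genes. The 6 were Pcdhgb6, the first Pcdha11 row, Pcdhb6, Pcdhb10, Pcdhb16 and Pcdhgb2. With the replicate block it called 5 members, beside 440 of all genes. The fit on line means called 16 of all genes, so the fit over libraries was looser for all genes. With the replicate block the counts were 31 among lines, 24 and 26 for the PIC144 and PIC496 pairs and 7 for PC134-0 against PC326-1. With no filter 54 of 58 members differed among lines and with a stricter filter (2 FPKM) 19 of 19. The stricter filter, which tests fewer genes, gave 15 and 16 of 19 for the PIC144 and PIC496 pairs. The shares of all genes under these 2 filters are not given here, so the counts describe the processing only. Leaving out 1 library per line gave 3 to 6 for PC134-0 against PC326-1.

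Per kilobase of own exon the alpha sums were 5.01 and 11.6 (mutant, WT) and the gamma sums 89.1 and 126, since the length divided by is shorter; without Pcdhgc3 the gamma sums were 25.7 and 38.6 FPKM. Detection at 30 fragments or more per line gave 50 members in PC308-1, 48 in PIC496-3, 40 in PC326-1 and 37 in PIC144-1. At 1 FPKM there were 27 in PC308-1 and 26 in PIC496-3, so the line with the most members depended on the cut. Depth limits the alpha genes most, with 223 fragments in PIC144-1.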
